A study of Mus musculus with 26 samples.

Results

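The 40 genes described here encode machinery of the secretory pathway: proteins that carry a nascent chain into the endoplasmic reticulum (ER), fold it there, load it into vesicles and return escaped ER residents, with 5 transcription factors that act on these genes. They were chosen by symbol from a working list of such genes, by a rule that holds no measured value, and fall into 8 roles. Earlier results of these data were known when the members were chosen. Each of the 40 had a row among the 24421 genes of the count table, and all 40 passed the low-count filter of the tests. The question put to the data was whether this machinery changes with the collagen load of cardiac stromal cells after infarction, for which Col1a1, the gene of the type I collagen alpha 1 chain, served as the measure.

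The cells came from enzymatically dissociated hearts of C57BL/6 mice (B6.129S4-Pdgfratm11(EGFP)Sor/J), in which the Pdgfra locus drives a nuclear green fluorescent protein. All groups, controls included, have the genotype PDGFRa H2BEGFP+, and all were sorted as GFP positive, CD45 negative (no leukocytes) and CD31 negative (no endothelium), then gated on SCA-1, the product of Ly6a. The 26 RNA sequencing libraries comprise 9 from undamaged hearts (5 Sca-1 positive, 4 negative), 6 from day 7 after ligation of the left anterior descending (LAD) coronary artery (1 positive, 1 negative and 4 whose labels give no gate), 4 from day 14 (2 and 2) and 7 from day 28 (4 positive, 3 negative). The labels give no age and tie no library to an animal, so each p below measures the spread between libraries, which may be technical.

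In every secreting cell the Sec61 channel passes the chain into the ER, signal peptidase trims it, chaperones such as BiP (Hspa5) and the lectins calnexin and calreticulin hold it, and protein disulfide isomerases and prolyl isomerases fold it. COPII vesicles export the cargo, with collagen needing the large-cargo receptor TANGO1 (Mia3), and KDEL receptors return ER residents in COPI vesicles. When folding capacity is exceeded, the unfolded protein response raises many of these genes through XBP1, ATF6 and ATF4, and in collagen-secreting cells CREB3L1 and CREB3L2 also act on secretory genes and collagen genes.

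Promoters of the folding chaperones carry sequences that such factors are known to bind, and are shown first. RefSeq promoters (build GRCm38.p6, 250 bases before to 50 after the start) were found for 32 of the 40 genes. No entry was found for Rcn1, Fkbp10, Sec61a1, Ssr2, Spcs3, Lman1, Kdelr2 and Creb3l1. On both strands 3 motifs were searched: the ER stress response element (CCAAT and CCACG 9 bases apart), its second form (ATTGG and CCACG 1 base apart) and TGACGTGG, a core bound by XBP1 and CREB3L type factors; none of the matches overlapped. The first was held by 5 of 32 members, Hspa5, Hsp90b1, Calr, Canx and Pdia6 (15.6%), against 39 of all 32851 promoters (0.119%). The second was held by 0 of 32 members and 12 promoters in all (0.0365%). TGACGTGG was held by Sec23a, Sec24d and Kdelr3 (9.38% of 32) against 222 of all promoters (0.676%). A match describes letters and not binding. Members were counted as genes and all promoters as entries. The motifs were chosen as sequences known to be bound by regulators of such genes, so their shares are a description and no test. In the promoters of the 5 chaperone genes and Kdelr3, read 5′ to 3′ along the gene, capitals mark the 2 parts of the element, or TGACGTGG, on either strand.
Hspa5 (chr2:34771840-34772139, plus strand): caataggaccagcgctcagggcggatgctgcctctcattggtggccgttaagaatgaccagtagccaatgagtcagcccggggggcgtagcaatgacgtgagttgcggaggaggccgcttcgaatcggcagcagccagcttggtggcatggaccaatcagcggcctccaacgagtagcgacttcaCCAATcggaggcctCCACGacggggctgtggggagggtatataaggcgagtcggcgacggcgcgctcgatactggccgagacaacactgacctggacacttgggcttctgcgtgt
Hsp90b1 (chr10:86705395-86705694, minus strand): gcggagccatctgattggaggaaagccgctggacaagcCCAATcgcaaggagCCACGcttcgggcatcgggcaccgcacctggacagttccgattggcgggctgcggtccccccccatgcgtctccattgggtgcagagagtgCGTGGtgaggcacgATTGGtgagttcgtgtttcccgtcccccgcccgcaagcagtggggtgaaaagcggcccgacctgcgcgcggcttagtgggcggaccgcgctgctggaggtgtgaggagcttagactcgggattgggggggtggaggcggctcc
Calr (chr8:84846882-84847181, minus strand): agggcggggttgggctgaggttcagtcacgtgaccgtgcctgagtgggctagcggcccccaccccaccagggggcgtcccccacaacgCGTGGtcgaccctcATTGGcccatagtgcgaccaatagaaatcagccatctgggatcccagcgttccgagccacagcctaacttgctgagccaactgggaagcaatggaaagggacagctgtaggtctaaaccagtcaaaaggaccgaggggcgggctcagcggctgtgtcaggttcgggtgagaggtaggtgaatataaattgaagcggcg
Canx (chr11:50325624-50325923, minus strand): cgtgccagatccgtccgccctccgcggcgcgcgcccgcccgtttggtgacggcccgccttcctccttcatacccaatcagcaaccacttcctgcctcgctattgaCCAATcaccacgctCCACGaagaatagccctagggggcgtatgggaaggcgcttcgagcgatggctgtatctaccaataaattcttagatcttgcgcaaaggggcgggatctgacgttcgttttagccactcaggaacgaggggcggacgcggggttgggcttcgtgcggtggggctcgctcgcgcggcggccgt
Pdia6 (chr12:17266339-17266638, plus strand): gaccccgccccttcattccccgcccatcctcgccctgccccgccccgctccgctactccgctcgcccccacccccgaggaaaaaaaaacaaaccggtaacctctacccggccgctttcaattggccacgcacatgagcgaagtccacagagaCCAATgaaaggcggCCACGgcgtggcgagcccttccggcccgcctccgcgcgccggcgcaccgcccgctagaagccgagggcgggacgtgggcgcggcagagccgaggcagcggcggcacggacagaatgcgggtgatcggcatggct
Kdelr3 (chr15:79516158-79516457, plus strand): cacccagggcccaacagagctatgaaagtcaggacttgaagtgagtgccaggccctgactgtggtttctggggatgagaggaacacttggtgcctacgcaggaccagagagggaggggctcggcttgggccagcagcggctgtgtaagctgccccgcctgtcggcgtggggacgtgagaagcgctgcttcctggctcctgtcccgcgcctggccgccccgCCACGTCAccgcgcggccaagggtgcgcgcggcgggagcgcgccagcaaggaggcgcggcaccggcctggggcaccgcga
The element lies between bases -65 and -47 before the start in Hspa5, between -98 and -80 in Pdia6, and within bases -212 to -89 in the other 3; Hsp90b1 holds it on both strands. Of the 4 luminal chaperones and lectins, each has it.

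Depth ranged from 6.79 M to 48.8 M counts assigned to genes per library, and levels are CPM, the count of a gene as a rate of the library total after TMM scaling. Reads outside genes made up 5.53% to 18.7% of each library except the Sca-1 positive day 28 replicate E2, with 55.8%. Pdgfra, the sorted gene, was present in every library (337 to 795 CPM). Marker sums moved with time: the 6 cardiac fibroblast markers had a median of 64897 CPM (58718 to 79120) in undamaged hearts and 27434 (20201 to 37472) at day 7, the 6 endothelial markers 303 and 130, the 5 epicardial markers 1.59 and 42.3, the 7 mural markers 173 and 371, the 8 leukocyte markers 8.74 and 24.6, and the 6 plasma cell markers 65.9 and 147. At day 7 the adjusted p passed for 4 of 6 fibroblast, 6 of 6 endothelial, 5 of 5 epicardial, 3 of 7 mural, 2 of 6 tested leukocyte and 1 of 3 tested plasma cell markers, for 0 of 6 cardiomyocyte and for 0 of 2 tested Schwann cell markers. One leukocyte marker and one plasma cell marker were at 0 in all libraries of undamaged hearts and of day 7. Xist, the RNA that silences an X chromosome in females, exceeded 20 CPM in 4 of 6 day 7 and 2 of 4 day 14 libraries and in 0 of 9 undamaged and 0 of 7 day 28 ones. With a term for it in edgeR, 5 members were called at day 7 and 4 at day 14. Of all 13392 genes 1046 were then called higher and 773 lower at day 7, and 655 and 324 at day 14. Fkbp10, Rcn1, Ssr2 and Atf4 were still called at day 7 and Ssr2, Spcs1 and Atf4 at day 14. P4hb was added at day 7 and Rcn1 at day 14, and Atf4 stood at -0.94 and -1.04. Rcn3 (adjusted p = 0.0711) and Creb3l2 (adjusted p = 0.249) were no longer called at day 7. The part of the other cell types in the results below was not tested, and in bulk RNA fewer cells of a type cannot be told apart from less RNA per cell. Replicate codes in the titles have 2 forms. The first is a letter with a digit (letter-coded, 5 undamaged and 3 day 28 libraries). The second is such a code, or at day 7 a digit with a letter, after a number (prefixed, 4 undamaged, 4 day 7, 4 day 14 and 4 day 28 libraries). Each number occurs at 1 time point, so number and time cannot be told apart. Both Sca-1 fractions of the prefixed undamaged code B7 stood low for the members on average. Kdelr3, Sec13, Ssr4, Sec61b, Tmed3 and Ppib went the other way, with both B7 libraries above all other undamaged ones. Results that rest on the B7 libraries are given with and without them.

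Col1a1 (GRCm38 chromosome 11, 94936224 to 94953042) rose at each time after ligation. Its level was 3060 to 4658 CPM (median 4161) in the 9 undamaged libraries, 20886 to 40610 (median 31386) in the 6 at day 7, 12283, 15336, 18680 and 24905 in the 4 at day 14, and 4225 to 11473 (median 8780) in the 7 at day 28. All day 7 and day 14 libraries lay above all undamaged ones, and at day 28 the lowest library, E2, overlapped them. The fitted log2 changes were 2.94 ± 0.19 (standard error, as for all fitted changes below), 2.13 ± 0.20 and 1.03 ± 0.18, with adjusted p of 7.51e-12, 3.43e-08 and 0.000441 (edgeR quasi-likelihood test, Benjamini-Hochberg over 13392 genes; an adjusted p under 0.05 is a call). As a share of all gene counts Col1a1 went from 0.413% ± 0.0466 (SD, n = 9) to 2.98% ± 0.607 (n = 6), 1.39% to 2.49% in the 4 day 14 libraries and 0.797% ± 0.214 (n = 7). The 40 secretory genes together took 1.48% ± 0.145, 1.52% ± 0.108, 1.58% ± 0.0628 and 1.42% ± 0.146 at the same times. The share of the machinery thus moved within its spread between libraries while the ranges of the Col1a1 share in undamaged and day 7 libraries lay apart.

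At day 7 a small set of the machinery rose, and most of it had changes under 0.5 on the log2 scale. Of the 40 genes 5 were called higher (Fkbp10, Rcn1, Ssr2, Creb3l2 and Rcn3) and 1 lower (Atf4), that is 12.5% of members higher where 11.5% of all 13392 genes tested were called higher and 11.2% lower. The share of members called higher was thus near the background. The median change of the members was 0.15, beside -0.04 over all genes, 30 of 40 were above 0, and the changes ran from -0.49 to 0.96. Without the B7 libraries the median change was 0.12, with 26 of 40 above 0. The plot of fitted changes sets the largest of them, a 1.94-fold level of Fkbp10, beside the 7.69-fold level of Col1a1.

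**Figure D1:**
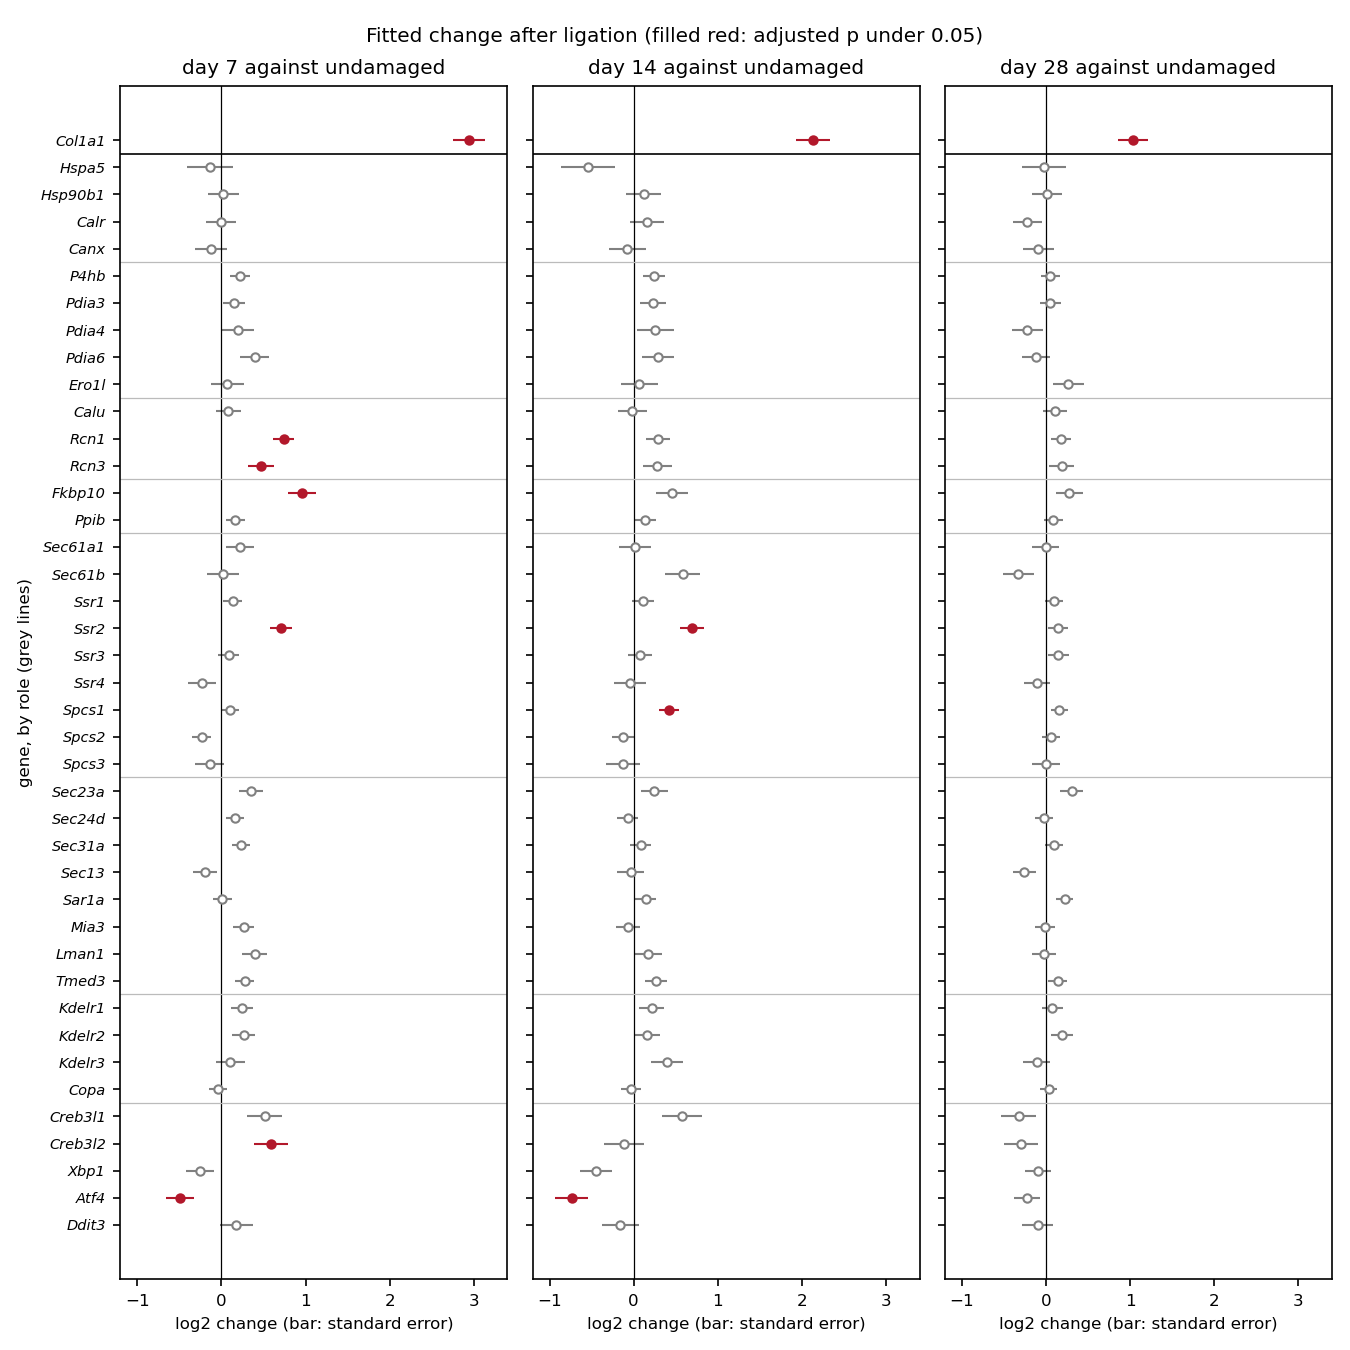
Fitted log2 change of Col1a1 and the 40 secretory genes (rows, grouped by role) at day 7, 14 and 28 against undamaged hearts; points are fitted values, bars standard errors, and filled red points have an adjusted p under 0.05. Col1a1 falls from 2.94 to 1.03 across the panels, while the secretory genes stay between -0.74 and 0.96.

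The prolyl isomerases and the calcium-binding proteins of the ER lumen held 3 of the 5 genes that rose. Fkbp10 (FKBP65, a collagen chaperone; chromosome 11, 100415697 to 100424824) measured 104 to 202 CPM (median 151) in undamaged hearts, 193 to 356 (median 303) at day 7, 182, 198, 203 and 256 at day 14, and 92.2 to 228 (median 195) at day 28. A single day 7 library, replicate 4A at 193, fell within the undamaged range. Its change at day 7 was 0.96 ± 0.17 (adjusted p = 0.000129). Rcn1 (reticulocalbin 1, a calcium-binding ER protein; chromosome 2, 105386291 to 105399319) measured 156 to 230 CPM (median 180) in undamaged hearts and 232 to 447 (median 298) at day 7, with no overlap. At day 14 it stood at 198, 217, 248 and 270, and at day 28 at 172 to 240 (median 224), and both groups overlapped the undamaged one. Its change at day 7 was 0.74 ± 0.12 (adjusted p = 7.85e-05).

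Rcn3, a reticulocalbin of the same CREC family, measured 415 to 658 CPM (median 531) in undamaged hearts, 596 to 815 (median 738) at day 7, 593, 652, 663 and 675 at day 14 and 304 to 847 (median 652) at day 28. Its groups overlapped, and its change at day 7 was 0.47 ± 0.15 (adjusted p = 0.0273), a call lost on leaving out undamaged positive E1 or any of the day 7 replicates positive 1, negative 1, 1A and 1B (adjusted p up to 0.0717). Calu, the other CREC member, had a change of 0.08. Ppib (cyclophilin B, which acts in the prolyl 3-hydroxylation complex of collagen) lay at 301 to 408 CPM (median 384) in undamaged hearts, 335 to 463 (median 421) at day 7, 351, 358, 440 and 455 at day 14 and 299 to 443 (median 412) at day 28. Its groups overlapped throughout and its changes were 0.17, 0.13 and 0.09, none of them called.

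Among the 9 genes of the translocon and signal peptidase, Ssr2 (a subunit of the translocon-associated protein complex; chromosome 3, 88575876 to 88588419) stood apart from the others. It measured 93.2 to 127 CPM (median 109) in undamaged hearts, 152 to 193 (median 184) at day 7, 142, 184, 193 and 197 at day 14 and 69.1 to 148 (median 129) at day 28. All day 7 and day 14 libraries lay above all 9 undamaged ones, as for 4.41% of all genes at day 7 and 4.64% at day 14. Its day 7 change was 0.71 ± 0.13 (adjusted p = 0.000153), and that of day 14 was 0.69 ± 0.14 (adjusted p = 0.0015). The 3 other subunits of that complex had day 7 changes of 0.13 (Ssr1), 0.09 (Ssr3) and -0.23 (Ssr4), with no call.

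Spcs2, a signal peptidase subunit, lay at 90.5 to 138 CPM (median 111) in undamaged hearts, 85.9 to 115 (median 95.1) at day 7, 92.3, 104, 106 and 125 at day 14 and 97.3 to 146 (median 126) at day 28. These groups overlapped and its day 7 change was -0.23 ± 0.12 (adjusted p = 0.149). Spcs1, a partner subunit, passed the test at day 14. It lay at 65.6 to 89.5 CPM in undamaged hearts and at 79.1, 89.5, 110 and 121 at day 14, a change of 0.42 ± 0.12 (adjusted p = 0.0218), with a day 7 change of 0.10 (adjusted p = 0.52). The Spcs1 call was lost without day 14 positive D1 or negative D9 (adjusted p up to 0.155), and with the codes as a replicate block (limma-voom, adjusted p = 0.0621).

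The disulfide-forming enzymes were all above 0 at day 7 and day 14, and 0 of 5 were called at either time. Pdia6 measured 212 to 493 CPM (median 359) in undamaged hearts, 381 to 590 (median 466) at day 7, 381, 416, 467 and 510 at day 14 and 234 to 428 (median 354) at day 28. Its day 7 libraries fell within the upper part of the undamaged range save 1A, at 590 (change 0.39 ± 0.17, adjusted p = 0.098). P4hb, the beta subunit of prolyl 4-hydroxylase as well as a disulfide isomerase, measured 845 to 1155 CPM (median 997) in undamaged hearts, 964 to 1366 (median 1076) at day 7, 1066, 1081, 1234 and 1340 at day 14 and 799 to 1167 (median 1124) at day 28. Its groups overlapped, and the day 7 change was 0.22 ± 0.12 (adjusted p = 0.182). Pdia3, Pdia4 and Ero1l had day 7 changes of 0.15, 0.19 and 0.07.

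The luminal chaperones and lectins centred on 0 after ligation, with a median change of -0.06 at day 7, 0.02 at day 14 and -0.06 at day 28 and 0 of 4 called. Hspa5 (BiP, the main Hsp70 of the ER; chromosome 2, 34771970 to 34777547) spanned 646 to 2128 CPM (median 1679) in undamaged hearts, 991 to 1985 (median 1276) at day 7, 917, 990, 1133 and 1199 at day 14 and 746 to 2299 (median 1752) at day 28. The spread within the undamaged and day 28 groups was over 3-fold and covered every day 7 and day 14 library. Its change at day 7 was -0.14 ± 0.27 (adjusted p = 0.76). Canx (calnexin) lay at 254 to 827 CPM (median 570) in undamaged hearts, 407 to 734 (median 486) at day 7, 412, 565, 597 and 630 at day 14 and 382 to 679 (median 544) at day 28, with overlapping groups and a day 7 change of -0.12 (adjusted p = 0.703).

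Of the export and retrieval genes 0 were called at day 7, with fitted changes above 0 for 7 of 8 COPII and cargo receptor genes (Sec13 had -0.20) and for 3 of 4 retrieval genes. Lman1, the mannose-binding cargo receptor ERGIC-53, measured 84.1 to 226 CPM (median 186) in undamaged hearts, 214 to 274 (median 217) at day 7, 151, 200, 215 and 224 at day 14 and 138 to 194 (median 177) at day 28. All 6 day 7 libraries lay above every undamaged library except positive E1, the highest. The change was 0.40 ± 0.15 with an adjusted p of 0.0533, and 0.42 with an adjusted p of 0.0267 in DESeq2. Sec23a, the COPII coat subunit whose loss impairs collagen export, lay at 67.9 to 160 CPM (median 125), then 130 to 177 (median 148), then 117, 149, 154 and 158, then 106 to 195 (median 150), with overlapping groups and a day 7 change of 0.35 ± 0.15 (adjusted p = 0.0786). Mia3 had a day 7 change of 0.26 (adjusted p = 0.14).

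Kdelr2, a KDEL receptor, measured 209 to 292 CPM (median 236) in undamaged hearts, 242 to 364 (median 264) at day 7, 237, 258, 267 and 298 at day 14 and 160 to 381 (median 294) at day 28. Kdelr1 measured 136 to 203 (median 177), 156 to 256 (median 211), 180, 213, 222 and 223, and 111 to 229 (median 194) at these times. Both overlapped at all times, and their day 7 changes were 0.26 ± 0.14 and 0.24 ± 0.13, with adjusted p of 0.173 and 0.189. Copa, the alpha subunit of the COPI coat, had a day 7 change of -0.04.

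The 5 transcription factors did not move together. Creb3l2 measured 73.8 to 189 CPM (median 134) in undamaged hearts, 138 to 288 (median 191) at day 7, 97, 99.5, 116 and 178 at day 14 and 65.3 to 158 (median 108) at day 28. It was high in day 7 replicate 4B and negative 1 (288 and 232), and the groups overlapped. Its day 7 change was 0.59 ± 0.21 (adjusted p = 0.0378), and the call was lost without any of undamaged negative F3, negative B7, positive B7 and day 7 negative 1, 4A and 4B (adjusted p up to 0.141). Creb3l1 measured 68.6 to 174 CPM (median 102), then 128 to 191 (median 155), then 146, 157, 159 and 216, then 30.5 to 130 (median 95.8). Its changes of 0.51 ± 0.21 at day 7 and 0.57 ± 0.24 at day 14 were not called (adjusted p = 0.0845 and 0.151).

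Atf4, the factor of the integrated stress response, was lower (chromosome 15, 80255184 to 80257541). It measured 234 to 312 CPM (median 288) in undamaged hearts, 121 to 266 (median 207) at day 7, 141, 155, 174 and 206 at day 14 and 122 to 343 (median 259) at day 28. All 4 day 14 libraries lay below all undamaged ones, as for 1.75% of all genes, and at day 7 only 4B lay inside the undamaged range. Its day 7 change was -0.49 ± 0.17 (adjusted p = 0.0349), and that of day 14 was -0.74 ± 0.20 (adjusted p = 0.0161). The day 7 call was lost without any of undamaged positive E3, negative E5, negative B7 and day 7 negative 1, 1A and 1B (adjusted p up to 0.106), and the day 14 call without either D1 library (adjusted p up to 0.09).

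Xbp1, whose spliced form drives ER expansion, lay at 127 to 227 CPM (median 199), then 109 to 221 (median 141), then 126, 139, 139 and 149, then 126 to 217 (median 200). Its change was -0.25 ± 0.16 at day 7 and -0.45 ± 0.19 at day 14 (adjusted p = 0.282 and 0.153), and gene counts do not separate its spliced form. Ddit3 (CHOP) lay at 16.2 to 36.1 CPM (median 32.1), then 24.5 to 58.7 (median 29), then 21, 22.1, 30.8 and 36.2, then 16.6 to 34.4 (median 31.4), with groups that overlapped and a day 7 change of 0.18 (adjusted p = 0.545).

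**Figure D2:**
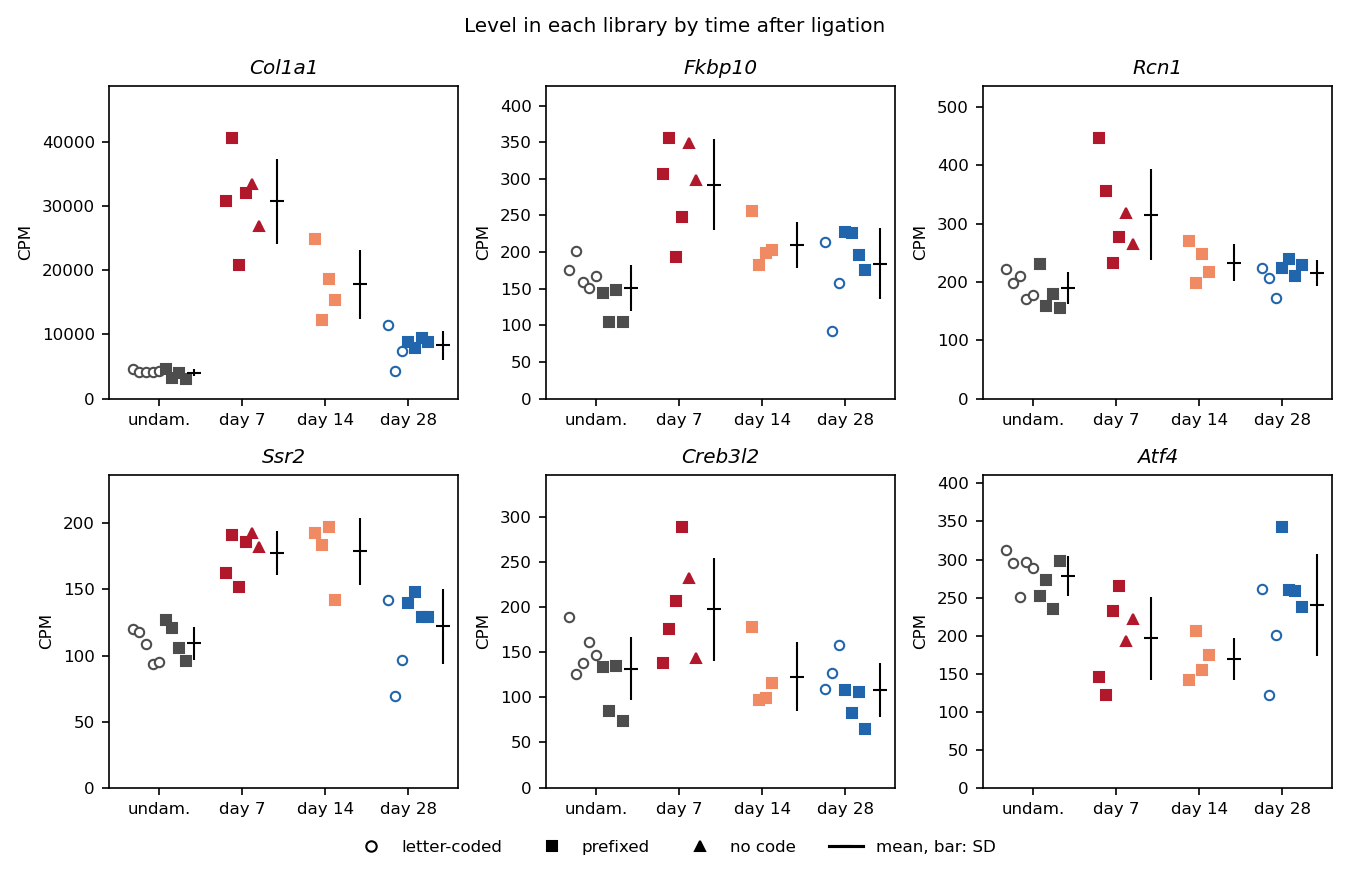
CPM of Col1a1, Fkbp10, Rcn1, Ssr2, Creb3l2 and Atf4 in each of the 26 libraries by time; open circles are letter-coded, squares prefixed and triangles uncoded libraries, and the black mark is the mean with its SD. Rcn1 and Ssr2 at day 7 lie above all undamaged libraries, Fkbp10 overlaps them in 1 library, and Atf4 at day 14 lies below all of them.

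The day 7 counts depended on the libraries used, those of code B7 among them. Day 7 holds prefixed and uncoded libraries and no letter-coded one, so the 2 code forms cannot be compared at that time. In prefixed libraries alone 9 members were called higher and 2 lower, where 10.7% and 8.87% of all genes were, with a median member change of 0.38, which was 0.18 without the B7 libraries. Pdia6, Ero1l, Sec31a, Mia3 and Lman1 joined Fkbp10 (1.13), Rcn1, Ssr2 and Creb3l2, Ssr4 (-0.58) and Sec13 (-0.52) were lower, and Rcn3 and Atf4 were no longer called. Without both B7 libraries the prefixed comparison called 2 members higher, Fkbp10 and Ssr2, and 0 lower, where 6.58% and 4.54% of all genes were. The comparison of all libraries but B7 called 5 higher (Rcn1, Rcn3, Fkbp10, Ssr2 and Tmed3) and 0 lower, where 13.2% and 10.8% of all genes were. Both counts of higher members lay near or below these shares. Leaving out 1 library at a time gave 3 (without day 7 negative 1) to 8 called members, and Fkbp10, Rcn1 and Ssr2 were called in 26 of 26 such fits. The call of Creb3l2 was lost when the code was modelled as a replicate block (limma-voom, adjusted p = 0.0598).

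Only 2 members lay wholly above the undamaged libraries at day 7, Rcn1 and Ssr2, where 4.41% of all genes did, and 0 lay wholly below (2.15% of all genes). At day 14, 1 member lay wholly above (Ssr2) and 1 wholly below (Atf4), where 4.64% and 1.75% of all genes did. At day 14 the median change of the members was 0.13, beside -0.03 over all genes, with 26 of 40 above 0. Without the B7 libraries it was 0.09, also with 26 of 40 above 0. Ssr2 and Spcs1 were called higher (2 of 40, where 5.76% of all genes were) and Atf4 lower (1 of 40, where 3.03% were). The count at day 14 fell to 1 without positive D1 and rose to 5 without the B7 libraries, when Sec61b and Kdelr3 joined (4 higher and 1 lower, where 7.91% and 4.57% of all genes were). Ssr2 was called in 26 of 26 fits that left out 1 library. Between day 7 and day 14, 0 of 40 members were called, where 0.0299% of all genes were, and DESeq2 called 0. An unadjusted p under 0.05 was found for 6 members, and the share of all genes with such a p is not given here.

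Genes of the same pathway outside the 40 included several with larger day 7 changes. Of 125 tested, from 7 lists, 19 were called higher and 8 lower at day 7, 6 and 3 at day 14, and 4 and 0 at day 28, beside the shares of all genes given above for these comparisons (11.5% and 11.2% at day 7, 5.76% and 3.03% at day 14, 3.34% and 1.88% at day 28). In the list of folding enzymes and co-chaperones 6 of 27 rose at day 7 and 1 fell. Ppic (cyclophilin C) rose by 1.52 ± 0.18 (adjusted p = 3.86e-07) and Pdia5 by 1.34 ± 0.12 (adjusted p = 2.06e-09), and at day 28 Pdia5 (0.44, adjusted p = 0.0188) and Fkbp9 (0.44, adjusted p = 0.0133) were still higher. The other 4 with a day 7 rise were Fkbp11 (1.30), Serpinh1 (HSP47, the collagen chaperone, 0.73), Erp29 (0.55) and Fkbp14 (0.39), and Sdf4 fell by 0.37; these were named after their values were seen. At day 14 Fkbp11 (1.49), Ppic (1.24), Serpinh1 (0.69) and Pdia5 (0.68) were again higher. Of 16 genes of signal recognition and translocation 2 rose (Srp68, 0.36, and Srp72, 0.35) and 2 fell at day 7, and Sec61a2 was higher at day 28 (0.46). Sec61g, the gamma subunit of the channel, fell by 1.03 at day 7 (adjusted p = 0.0302) and had a change of -1.01 at day 28 (adjusted p = 0.0683).

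Of 15 genes of N-glycan transfer and trimming 1, Prkcsh (0.35), rose at day 7. Tusc3 (-0.35), and at day 28 Rpn2 (0.20) and Mogs (-0.23), were not called. Of 30 further COPII genes 4 rose, Tfg (0.35) among them, and 4 fell, Sec24c (-0.35) among them; at day 28 Sec24c (-0.28) and Tmed7 (0.35) were not called. Among 11 COPI genes Gbf1 rose (0.31) at day 7 and Copg2 (0.50) at day 28, and Copz2 was not called at either time (0.26 and 0.28). Of 13 unfolded protein response genes Asns (asparagine synthetase, an ATF4 target) rose by 1.38 ± 0.25 and Creb3 by 0.40, while Trib3, also an ATF4 target, fell by 0.91 (adjusted p = 0.00542); Ppp1r15b (0.30) and Herpud1 (0.28) were not called at day 28, and Herpud1 was lower at day 14 (-0.64). Of 13 genes of ER-associated degradation 3 rose at day 7, Erlec1 (0.56), Edem2 (0.42) and Edem3 (0.43), and Erlec1 (0.37) and Edem3 (0.19) were not called at day 28.

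At day 28 the average of the members was back at the undamaged level, but the median member change had opposite signs in the 2 code forms. Over all libraries 0 of 40 were called, where 3.34% of all genes were higher and 1.88% lower; the median change was 0.02 (0.00 over all genes), 2 members had an unadjusted p under 0.05 and DESeq2 called 0. Without the B7 libraries the median change was -0.01. In the 9 undamaged and 7 day 28 libraries, refitted with code form and time after this pattern was seen, the members' median change at day 28 was 0.28 in prefixed libraries (34 of 40 above 0, 3 called higher where 6.26% of all genes were) and -0.16 in letter-coded ones (4 of 40 above 0, 3 called lower where 4.27% were). Without the B7 libraries the prefixed median was 0.12, with 29 of 40 above 0. The difference between these changes was called for 5 members, where 11.7% of all 13108 genes were: Hspa5 (2.21 ± 0.33, adjusted p = 0.000224), Calr (1.32 ± 0.25, 0.00199), Sec61a1 (1.09 ± 0.29, 0.0191), Xbp1 (1.06 ± 0.20, 0.00149) and P4hb (0.60 ± 0.19, 0.0428). Of 40 members 36 had a difference above 0, with a median of 0.45 (-0.03 over all genes). With the codes as a replicate block (limma-voom, an alternative added after the pattern was seen; consensus correlation 0.032 over all genes) the same 5 and Pdia6 were called, where 10% of all genes were. The prefixed libraries of each time are 2 codes in both gates, so they are fewer separate replicates than libraries. Col1a1 had a change of 1.22 in prefixed libraries (adjusted p = 0.00195) and of 0.85 in letter-coded ones (adjusted p = 0.0254). The letter-coded change was not called with the replicate block (adjusted p = 0.0655) or in letter-coded libraries alone (0.84, adjusted p = 0.0685), and their levels overlapped (4137 to 4658 CPM in undamaged hearts, 4225 to 11473 at day 28).

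The plot of levels by code form shows where this came from. Hspa5 measured 1679 to 2128 CPM in the 5 letter-coded undamaged libraries and 646, 682, 1347 and 1388 in the prefixed ones, and at day 28 it measured 746, 748 and 956 in letter-coded and 1752, 1975, 2156 and 2299 in prefixed libraries. The forms did not overlap at either time, and their order was opposite. The share of all genes with no overlap between the forms was not counted. Calr (calreticulin) measured 1280 to 1901 and 670 to 1113 CPM in undamaged hearts, and 803 to 818 and 1230 to 1365 at day 28, in letter-coded and prefixed libraries. Xbp1 measured 199 to 227 and 127 to 182, then 126 to 135 and 200 to 217, in the same order. Within undamaged hearts Hspa5, Calr and Ero1l were called lower in prefixed libraries (-0.92, -0.70 and -0.79) and Kdelr3 higher (0.80), 4 of 40 where 9.35% of all genes were called. Within day 28 Hspa5, Xbp1 and Kdelr2 were called higher in prefixed libraries (1.29, 0.65 and 0.63), 3 of 40 where 5.9% were.

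**Figure D3:**
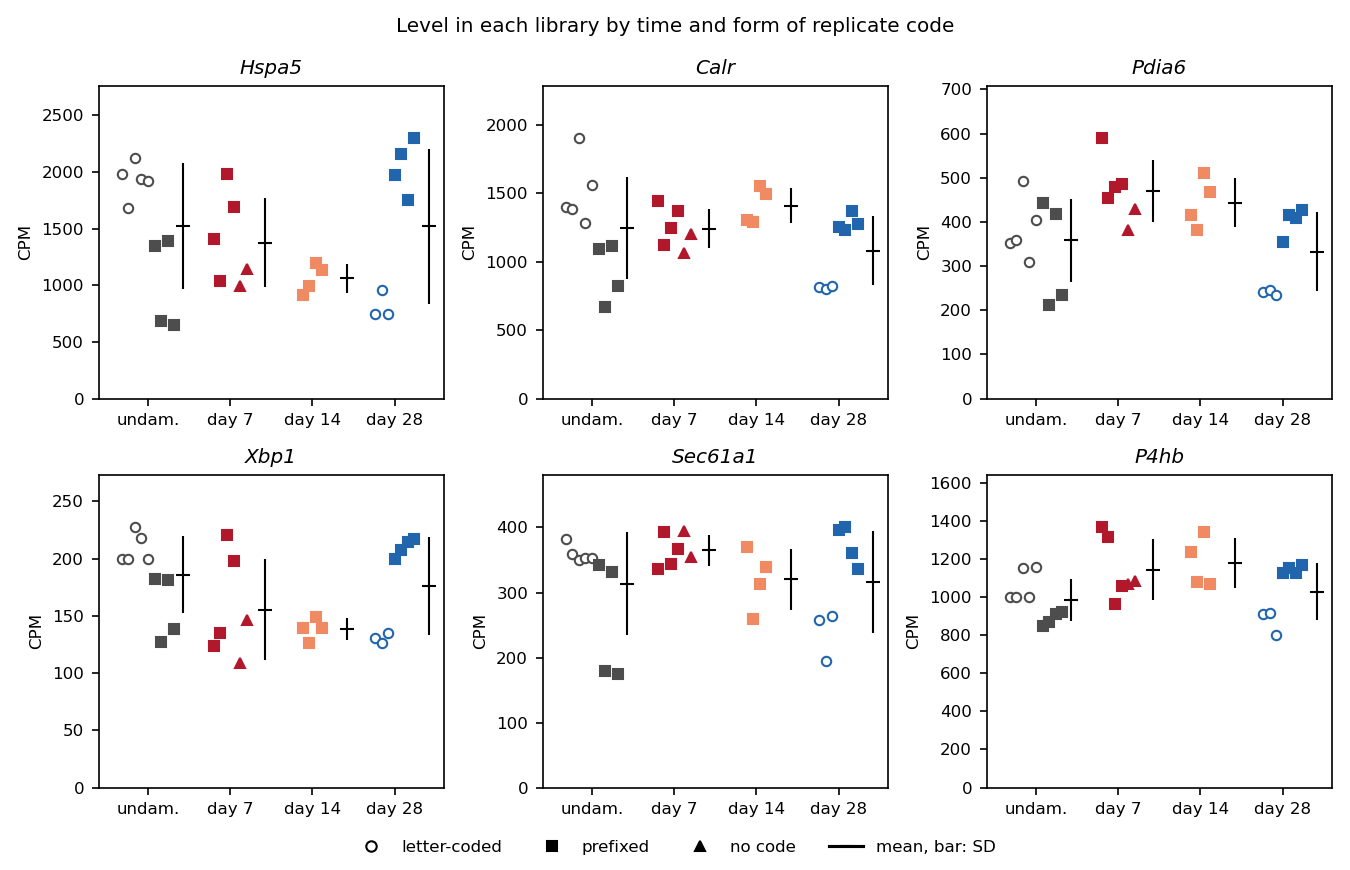
CPM of Hspa5, Calr, Pdia6, Xbp1, Sec61a1 and P4hb in each library by time; open circles are letter-coded, squares prefixed and triangles uncoded libraries, and the black mark is the mean with its SD. Letter-coded libraries lie above prefixed ones in undamaged hearts, with overlap for Pdia6, and below them at day 28, with letter-coded Hspa5 at 1679 to 2128 and then 746 to 956 CPM.

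Part of this rested on code B7. Without its 2 libraries 0 members were called between the forms in undamaged hearts, where 4.15% of all genes were, and 0 in the prefixed day 28 change, where 7.31% were (Hspa5 0.53, adjusted p = 0.0785). In letter-coded libraries 6 were called lower at day 28 (Hspa5, Calr, Xbp1, Pdia6, Pdia4 and Sec61a1), where 11.8% of all genes were called, and 7 between the forms at day 28, where 9.47% were. The difference of changes was then called for 6 members, where 11.2% of all genes were (Hspa5 1.77, Calr 1.05, Xbp1 0.83, Sec61a1 0.68, Ppib 0.63 and Ddit3 1.08). Hspa5, Calr and Xbp1 kept their call in each of the 16 fits without 1 library; Sec61a1 lost it without day 28 positive E2 (adjusted p = 0.053), and P4hb in 12 of them. Without day 28 negative E4 the count rose to 8. What the code forms stand for is not given in the sources used here, and the part of sorting, library preparation or sequencing run was not tested.

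Members with and without a promoter motif overlapped in their changes at each time. The 8 members with a motif had a median day 7 change of 0.06 (-0.14 to 0.39, 5 above 0) and the 24 without one 0.12 (-0.49 to 0.59, 18 above 0). At day 14 the medians were 0.14 (5 of 8 above 0) and 0.08 (14 of 24), and at day 28 they were -0.06 (2 of 8) and 0.06 (15 of 24). Between code forms the medians were -0.33 with and -0.21 without a motif in undamaged hearts, and 0.72 and 0.42 for the difference of the day 28 changes. Hspa5, Calr and Pdia6, which hold the ER stress response element, had differences of 2.21, 1.32 and 0.94 (the last not called, adjusted p = 0.054), Canx and Hsp90b1, which hold it too, 0.82 and 0.61 (adjusted p = 0.128 and 0.269), and Xbp1 (1.06) holds no motif in its window.

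**Figure D4:**
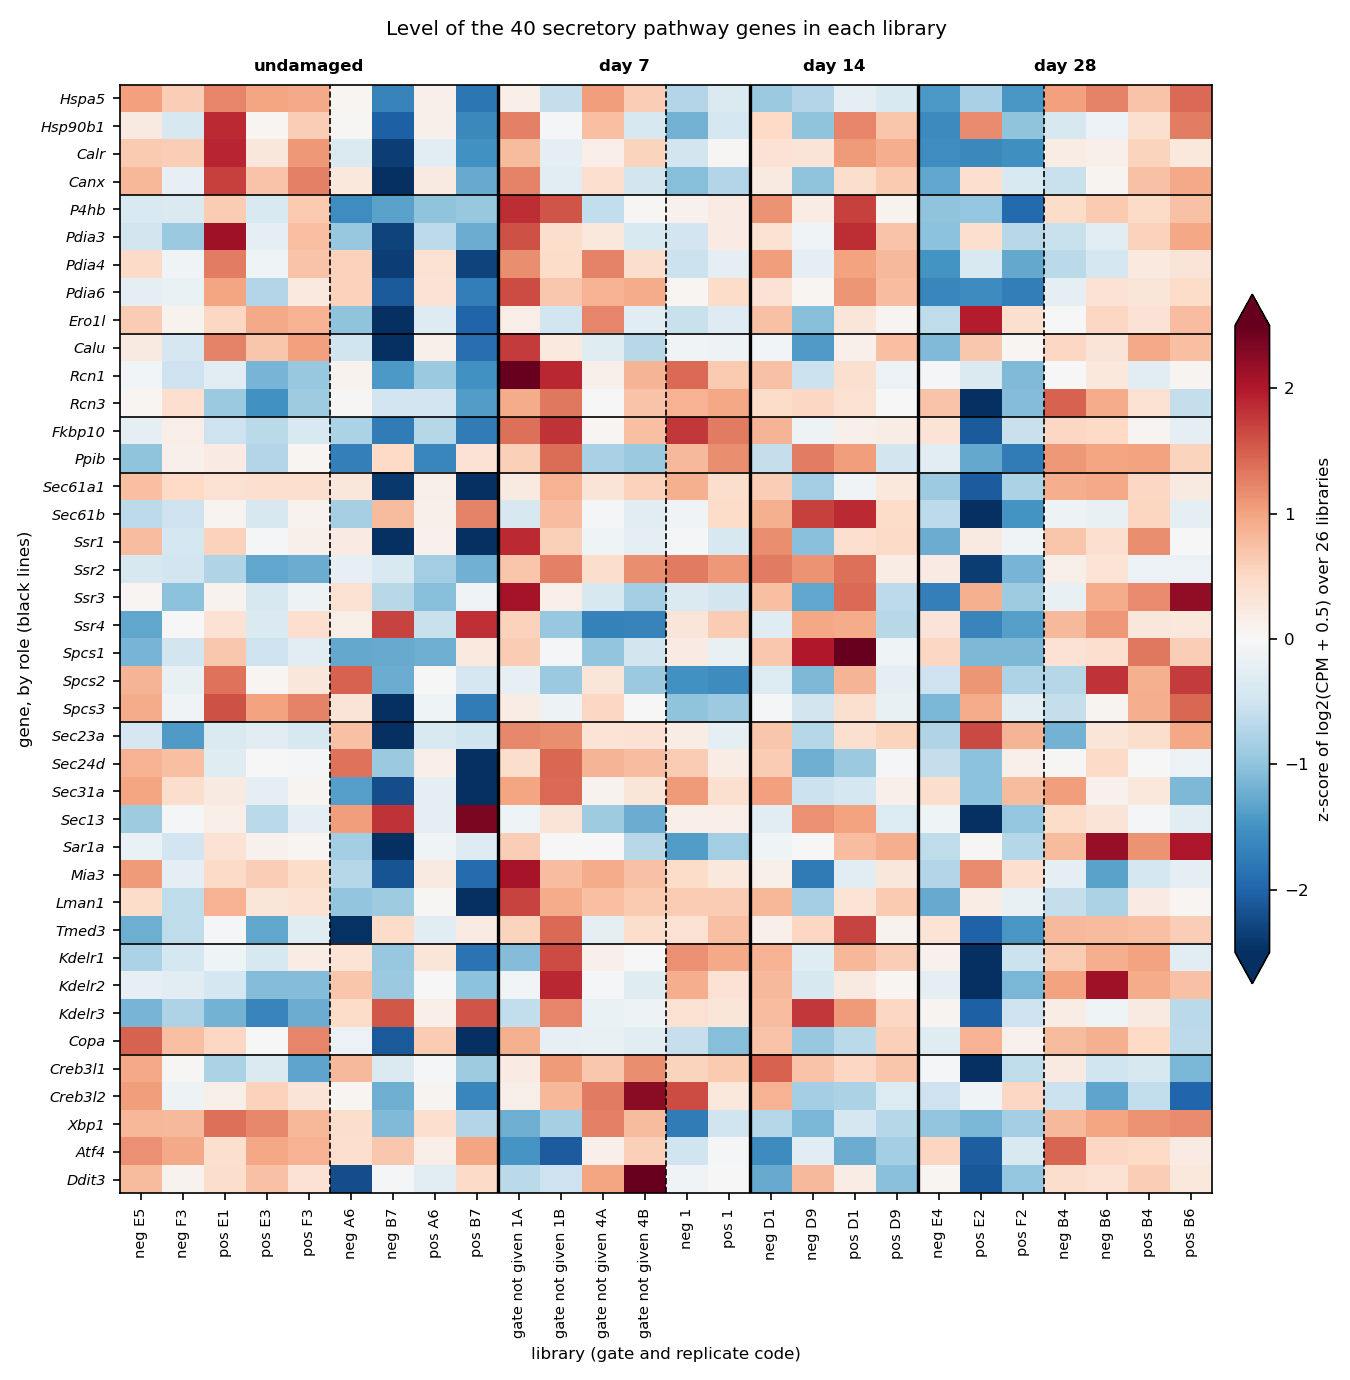
Z-scores of log2(CPM + 0.5) of the 40 genes (rows, grouped by role) in the 26 libraries (columns, by time; dashed lines part the code forms, letter-coded first in undamaged and day 28). Most members are low in both B7 libraries, and the chaperone and disulfide rows are on average lower in letter-coded than in prefixed libraries at day 28.

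Between day 14 and day 28 Col1a1 fell by 1.10 ± 0.21 on the log2 scale (adjusted p = 0.0054; 0.0527 without day 14 negative D1), and 3 of 40 members were called lower, where 1.43% of all genes were, and 0 higher (1.52%). Sec61b, the beta subunit of the Sec61 channel, measured 66.8, 77, 102 and 108 CPM at day 14 and 19.4 to 68.4 at day 28 (-0.91 ± 0.22, adjusted p = 0.022). Ssr2 had -0.55 ± 0.15 (adjusted p = 0.0401) and Creb3l1 -0.89 ± 0.25 (adjusted p = 0.0479), the latter with all day 28 libraries below all day 14 ones. With the codes as a replicate block 1 member, Sec61b, was called (limma-voom), and with a term for Xist Ssr2 and Creb3l1 were not (adjusted p = 0.0567 and 0.0901). Kdelr3, a KDEL receptor, also lay wholly lower at day 28 (81 to 144 CPM) than at day 14 (155 to 212) without a call; 2.77% of all genes did. Day 14 holds prefixed libraries alone. The count ran from 0 (without day 14 positive D1 or negative D9) to 4 with 1 library left out. It was 1 without any of day 7 positive 1, day 14 negative D1, and day 28 positive F2, B4 and B6.

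The machinery did not keep pace with Col1a1. Set relative to Col1a1 within each library, 40 of 40 members were lower at day 7, 40 at day 14 and 39 at day 28, as were 94.6%, 89% and 75.8% of all genes, so these counts follow from Col1a1 itself. The median member change per Col1a1 was -2.74, -1.94 and -0.89, beside -2.94, -2.08 and -0.95 over all genes. The member nearest to Col1a1 was Fkbp10 at day 7, with a change per Col1a1 of -1.97 ± 0.17, that is 0.256 of its undamaged ratio, and Ssr2 at day 14 with -1.38 ± 0.21. Col1a2, a second chain of the same collagen, had -0.36 ± 0.16 at day 7.

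The mean z-score of the 40 genes was -0.23 ± 0.55 (SD, n = 9) in undamaged hearts, 0.29 ± 0.24 (n = 6) at day 7, 0.23 ± 0.32 (n = 4) at day 14 and -0.08 ± 0.58 (n = 7) at day 28. The undamaged libraries ran from -1.23 (negative B7) to 0.45 (positive E1) and overlapped every later time. The 2 B7 libraries, at -1.23 and -1.04, lay far below the other undamaged ones and lowered the undamaged mean. The others ran from -0.19 (positive A6) to 0.45 and also overlapped every later time. At day 28 the prefixed libraries lay between 0.26 and 0.48 and the letter-coded ones between -0.84 and -0.55, at Col1a1 levels that overlapped.

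**Figure D5:**
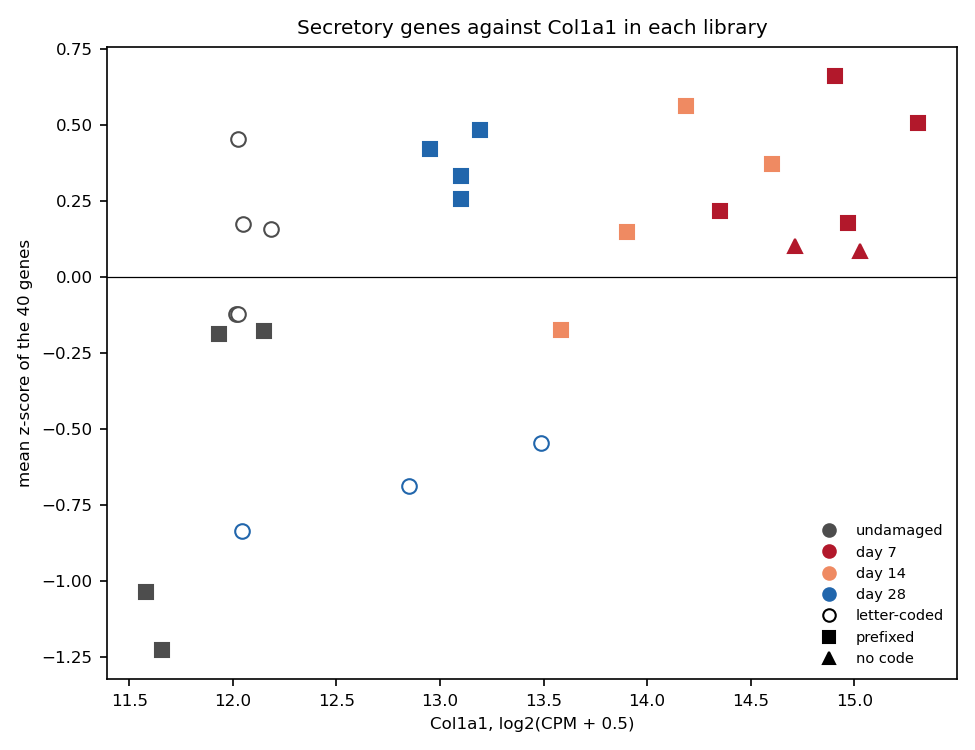
Mean z-score of the 40 secretory genes against log2(CPM + 0.5) of Col1a1 in the 26 libraries, coloured by time, with open circles for letter-coded, squares for prefixed and triangles for uncoded libraries. All 6 day 7 libraries are above 0, the 4 prefixed day 28 libraries lie at 0.26 to 0.48 and the 3 letter-coded ones at -0.84 to -0.55.

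Within time points 1 member, Fkbp10, had a called relation to Col1a1, and the call depended on the libraries and the fit. The slope on Col1a1, the log2 change of a gene per unit of log2 Col1a1 with time held, was above 0 for 34 of 40 members, with a median of 0.14 (-0.01 over all genes). It was called for 1 of 40, where 0.478% of all genes had a called slope above 0: Fkbp10 (0.83 ± 0.15, adjusted p = 0.0115), a call lost without day 28 positive E2 (adjusted p = 0.0915), in prefixed libraries alone and with gate as a further term. Creb3l1 (0.84, adjusted p = 0.0621), Rcn3 (0.53), Kdelr1 (0.49), Kdelr2 (0.47) and Ssr2 (0.46) were not called. The count was 4 without day 14 negative D9 or day 28 negative E4, 2 without undamaged positive F3 or day 7 replicate 1A, and 0 with Col3a1 in place of Col1a1 (Fkbp10 -0.021).

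Between the Sca-1 fractions 0 of 40 members were called in undamaged hearts, at day 14 or at day 28, where 3.09%, 0.0507% and 0.615% of all 13812 genes were, by edgeR without and with the code as a replicate block. The numbers of members with an unadjusted p under 0.05 were 1, 0 and 6. Shares of all genes with such a p are not given here, for these or other comparisons, so the 6 cannot be read as an excess. At day 28 Rcn3 differed by -0.65 ± 0.20, Sca-1 positive minus negative (adjusted p = 0.133), and DESeq2 called it (adjusted p = 0.0211). DESeq2 called 293 of 13812 genes higher and 123 lower there. With the code as a replicate block in edgeR, Rcn3 differed by -0.44 (adjusted p = 0.32). It measured 304 (E2), 460, 517 and 652 CPM in positive and 704, 742 and 847 in negative libraries, with no overlap. The share of all genes with no overlap between these fractions was not counted. Creb3l1 had -0.63 ± 0.25 in undamaged hearts and -0.61 ± 0.29 at day 28 (adjusted p = 0.212 and 0.338). The 2 day 7 libraries with a labelled gate, 1 in each, differed by a median of 0.01 over the members (-0.69 to 0.42), with no test.

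Within the positive fraction Ssr2 was the single member called at day 14 (0.75 ± 0.19, adjusted p = 0.0389; 1 of 40, where 1.79% of all genes were called), and in the negative fraction its change was 0.62 (adjusted p = 0.0845), with 0 of 40 called where 3.84% of all genes were. The positive call held in 7 of 20 fits without 1 library. At day 28, 0 of 40 were called in the positive and 0 in the negative fraction, where 1.15% and 0.999% of all genes were. The differences between the fractions in the day 14 and day 28 changes were called for 0 members and for 0% and 0% of all genes. Members with an unadjusted p under 0.05 numbered 2 and 0 for the day 28 changes in the positive and negative fraction, and 0 and 0 for these differences; DESeq2 called 0 in each of the 4.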

How the data were processed

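RNA was turned into strand-marking mRNA libraries and read from both ends, per the labels. The authors deposited counts, whole numbers of reads per gene symbol in each library, with 2 entries that name no gene, left out here. The submitters' processing notes name bcl2fastq, TopHat, Bowtie2, STAR, Cufflinks and build mm10. The counting program and its strand setting are not given in the sources used here. Exons of 14 members overlap a gene on the other strand (Fkbp10 with Nt5c3b, Ssr2 with Gm10704, Rcn3 with Gm45669 and Spcs1 with Glt8d1 among them) and 2 one on the same strand, and Calr and Spcs2 have processed copies, so these can share reads. Positions came from GENCODE M21, which held all 40 symbols. At these depths 3 counts are 0.0614 to 0.442 CPM, and PCR copies are counted.

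Tests used R 4.3.3 and edgeR 4.0.16 (TMM, low-count filter on the groups, robust quasi-likelihood fits, two-sided, Benjamini-Hochberg over all genes tested) on 26 libraries by time and on 20 libraries in 6 groups by time and gate. Alternatives used DESeq2 1.42.0, limma-voom (limma 3.58.1), other scaling factors, no filter, subsets of libraries and each library left out. Fits were tested on simulated data. The 4 day 7 libraries with no labelled gate were used for time alone. For the 7 pairs of positive and negative libraries with a shared code, r of their deviations was 0.259 to 0.425 over 13812 genes (not independent replicates), and 14 of 14 libraries correlated best with their own code, so the codes were taken as pairs. With 2 day 14 libraries per gate the deviations mirror each other, so D1 and D9 have the same r (0.408) and are not separate evidence. The members and gene lists were chosen with earlier results of these data known. Levels by library were given for the 2 members of each role with the smallest day 7 p, the transcription factors and Col1a1; from each other list the 2 genes with the smallest p at day 7 and at day 28 were named. Calls, fits by code form and the B7 libraries were described in addition, chosen after the values were seen.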

Additional observations from a re-analysis of the deposited data

Results flagged for a closer look

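Of 84 sets of values (21 quantities at 4 times), 2 held a library far from the others, where chance gives about 1 in 20. Lman1 stood at 274 CPM in day 7 replicate 1A, with the next library at 229. Ddit3 stood at 16.2 CPM in the undamaged Sca-1 negative replicate A6, with the next at 27.2.

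The change at day 28 differed between prefixed and letter-coded libraries, by the edgeR test of the difference, for Hspa5 (2.21), Calr (1.32), Sec61a1 (1.09), Xbp1 (1.06) and P4hb (0.60, log2 difference of the changes), in each case with the higher change in prefixed libraries. These are 5 of 40 members, near the 11.7% of all genes called. With 1 library left out P4hb kept its call in 4 of 16 fits, and Sec61a1 lost it without day 28 positive E2.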

How the results depend on the processing

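Counts of called members changed with the libraries and settings used, as follows. For day 7 against undamaged (6 called) they were 11 in prefixed libraries alone, 2 in those without code B7, 3 in the 22 libraries with a labelled gate and gate as a term, and 3 to 8 with 1 library left out. With gate as a term 815 of 13869 genes were called higher and 509 lower. For day 14 against undamaged (3) they were 6 without the 3 undamaged libraries with the fewest detected genes, 5 without code B7, 1 in prefixed libraries without code B7, and 1 to 4 with 1 left out. Without those 3 undamaged libraries 1169 of 13278 genes were called higher and 786 lower. In prefixed libraries without code B7, 3.35% of all genes were called higher and 1.71% lower. For day 28 against undamaged (0) they were 4 in prefixed libraries alone, with Hspa5 at 0.97, 5 in letter-coded ones alone, and 3 and 3 in the fit of code form by time. Of all 13083 genes tested in prefixed libraries alone, 875 were called higher and 617 lower. In letter-coded ones alone 690 of 12527 genes were called higher and 779 lower. For the difference of these changes (5) they were 4 to 8 with 1 left out. For day 28 against day 14 (3) they were 1 without a low-count filter, 1 with the limma-voom replicate block, and 0 to 4 with 1 left out. Without the filter 135 of 18500 genes were called higher and 171 lower, and with the block 83 and 91 of 13392. The gate difference at day 28 (0) gave 1 in DESeq2 and 0 to 1 with 1 left out. The day 14 change within the positive gate (1) gave 2 in DESeq2, 0 without a filter, 0 in prefixed libraries alone and 0 to 2 with 1 left out, and within the negative gate (0) 2 in DESeq2 and 0 to 2. For these day 14 changes DESeq2 called 311 of 13812 genes higher and 102 lower in the positive gate, and 564 and 298 in the negative. The day 28 change within the positive gate (0) gave 8 in letter-coded libraries alone, where 796 of 13538 genes were called higher and 1121 lower. The negative gate (0) holds 1 letter-coded day 28 library, so no count is given for it. The slope on Col1a1 (1) gave 0 in prefixed libraries alone, 12 without the time term, 0 with time and gate, 0 on Col3a1 (Fkbp10 at -0.021), 7 in DESeq2 and 0 to 4 with 1 left out. Without the time term 1640 of 13391 genes had a called slope above 0 and 1681 one below 0. In DESeq2 these numbers were 326 and 116. Shares of all genes are not given for the fits with 1 library left out. Fits on subsets hold fewer libraries, and otherwise the cause was not tested. With the codes as a replicate block (limma-voom, consensus correlation 0.237) day 7 kept 5 calls and day 14 kept 2. Creb3l2 (adjusted p = 0.0598) and Spcs1 (adjusted p = 0.0621) were lost, and the gate differences kept 0. Of all 13392 genes the block fit by time called 1555 higher and 1063 lower at day 7, and 840 and 309 at day 14. No day 7 library shares a code with another, so the block left the day 7 libraries as separate replicates. Ly6a measured 297 CPM in 1A and 330 in 4A, and 36.1 in 1B and 31.2 in 4B. It measured 297 in the labelled positive and 30.7 in the labelled negative day 7 library. Xist stood at 3.15 and 0 CPM in 1A and 1B, and at 228 and 328 in 4A and 4B. Whether some day 7 libraries come from the same heart is not given in the labels and was not tested. They may thus be fewer separate replicates than libraries. Day 14 groups of 2 libraries per gate borrow their spread from the others.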
